A study of Mus musculus with 2 samples.

Results

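The genes described here build, carry and edit heparan sulfate: 39 genes, made up of 6 glypicans, 4 syndecans and 29 enzymes. The list was given by symbol, and no measured value enters the rule, though earlier results of these data were known when it was chosen. All 39 were found in both gene tables, among 43346 mouse genes, of which 21474 are annotated as protein-coding. Total RNA-seq was made from kidneys of healthy B6NCrl mouse embryos of both sexes at 16.5 days of development, without any treatment or genetic change. Kidneys were pooled, from 41 embryos for replicate 2 and from a number not given in the sources used here for replicate 1. Each library started from 10 ng of RNA longer than 200 nucleotides with spike-in RNAs added. The labels call the libraries biological replicates of 1 group, so levels are compared between genes and between the 2 pools, and no condition is compared with another.

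Heparan sulfate is a long sugar chain attached to a core protein. A linker of sugars is built on a serine of the core, polymerases of the Ext family extend the chain in the Golgi, and sulfotransferases then mark stretches of it with sulfate groups at defined positions. Outside the cell, sulfatases and heparanase edit it further. In the developing kidney the chains bind growth factors that drive branching of the ureteric bud, and loss of the 2-O sulfotransferase Hs2st1 in mice leaves embryos without kidneys. Loss of GPC3 in people causes an overgrowth syndrome that includes malformed kidneys.

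The libraries held 34261328 and 37900132 expected counts on mouse genes, and spike-ins took 2.82% and 2.08% of all counts. All 10 kidney markers were at or above 1 TPM in both libraries, for example Slc34a1, the phosphate transporter of the proximal tubule, at 218 and 240 TPM. Markers of gonad and gut (Foxl2, Dmrt1 and Cdx2) had 0 counts, which allows up to 3 counts per library, or 0.0876 and 0.0792 CPM (counts scaled to library size). All 5 markers of vessels and blood were detected, led by Hbb-bs at 5052 and 4882 TPM. Of 3 cartilage markers 2 were detected, Col2a1 at 15.4 and 16.8 TPM and Sox9 at 26.1 and 23.5 TPM, while Acan was not. RNA of the adrenal, a neighbouring tissue, was present: all 4 adrenal markers were detected and summed to 65.3 and 82.7 TPM. Of the muscle markers 3 of 4 were detected, and their list summed to 409 and 810 TPM. Most of this sum came from the smooth muscle genes Acta2 (305 and 564 TPM) and Tagln (55.0 and 107 TPM), so it does not by itself mark neighbouring tissue. Acta1, of skeletal muscle, stood at 48.3 and 139 TPM and Myod1 at 0.63 ± 0.0849 TPM. None of these 8 muscle and adrenal markers was at 0. The part of any of these tissues in the levels below was not tested.

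A gene was called detected at 1 TPM or more in both libraries, TPM being a transcript level scaled by length and library size, so that genes can be set side by side. By this rule 34 of the 39 genes (87.2%) were detected, against 62.2% of protein-coding genes (13352 of 21474). The median of the 39 genes was 18.1 TPM, against 5.50 TPM for all protein-coding genes and 20.8 TPM for the detected ones. The share detected thus lay above the background. Because the members were chosen with earlier results of these data known, this describes the list and was not tested. Their median, which includes the 5 undetected members, lay near that of detected genes in general. In bulk tissue, a low level from few cells and a low level per cell cannot be told apart. Gpc3, Sdc4, Ext2, Ugdh and Gpc4 were the 5 members among the highest 10% of protein-coding genes. Extl1, Ndst3, Ndst4, Hs6st3 and Hpse2 were the 5 that missed the threshold.

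**Figure D1:**
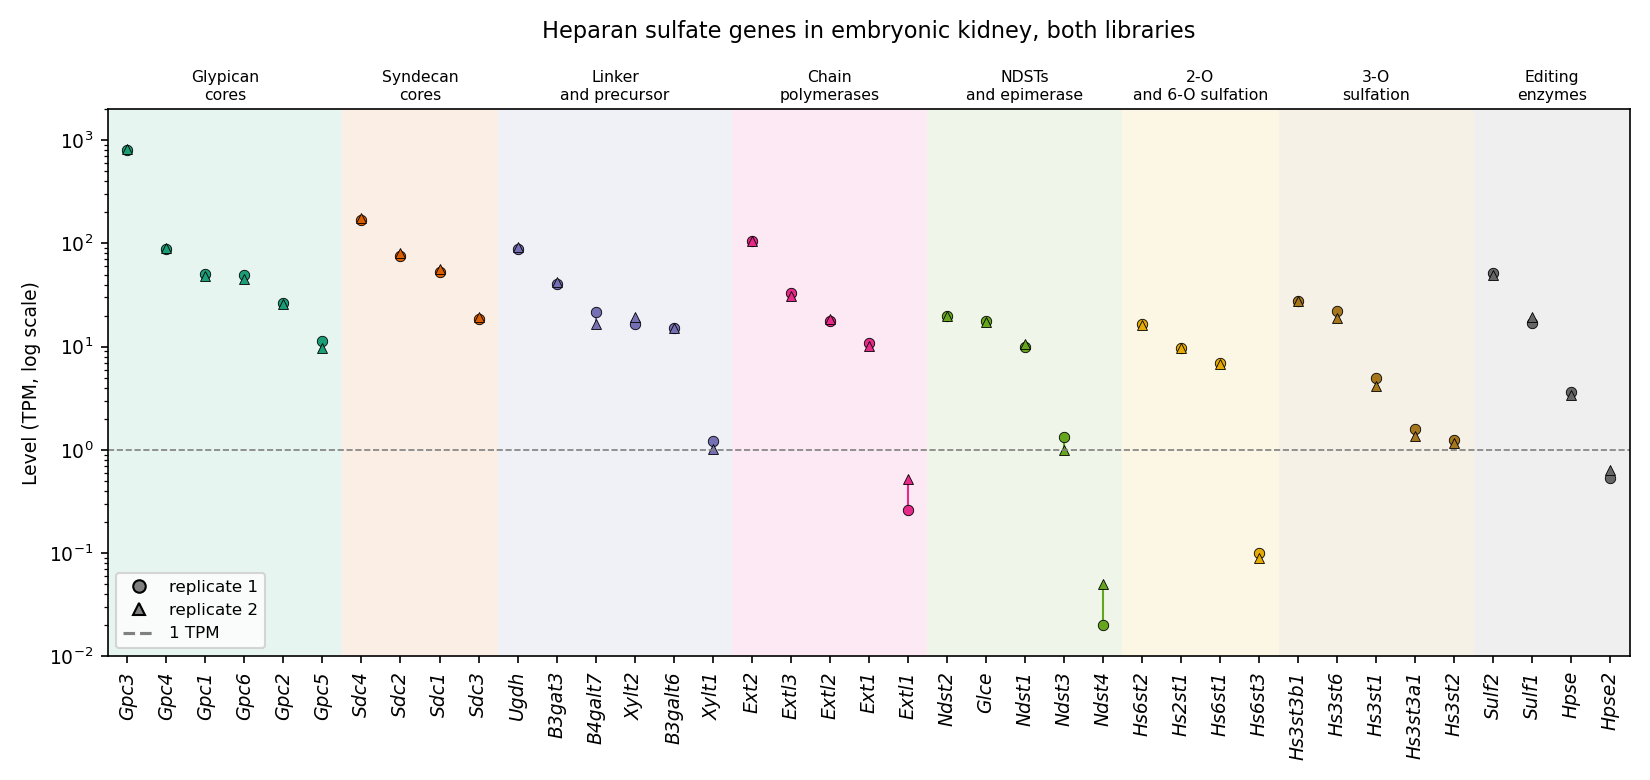
Level in TPM on a log axis of each of the 39 genes, grouped by role, with circles for replicate 1, triangles for replicate 2 and a dashed line at 1 TPM. Gpc3 stands alone at 807 and 814 TPM, while all 13 sulfotransferases sit at or below 28.0 TPM.

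Core proteins stood above the enzymes that modify their chains. The median of the 10 core proteins was 52.1 ± 0.389 TPM (SD, n = 2 libraries), the median of the 5 chain polymerases 18.1 ± 0.608 TPM, that of the 4 editing enzymes 10.9 ± 0.880 TPM and that of the 13 sulfotransferases 6.88 ± 0.170 TPM. The core median was thus 2.89 ± 0.0755 times the polymerase median, 4.82 ± 0.354 times the editing median and 7.58 ± 0.244 times the sulfotransferase median. These gaps exceeded the spread between libraries, but the classes overlapped gene by gene. In both libraries, 7 of the 10 core proteins exceeded Hs3st3b1, the highest sulfotransferase, 5 exceeded Sulf2, the highest editing enzyme, and only Gpc3 and Sdc4 exceeded Ext2, the highest polymerase. The size of each ratio depends on the few low genes of a class: over detected members alone the ratios were 2.08, 2.88 and 5.22 for polymerases, editing enzymes and sulfotransferases.

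Glypicans are core proteins held to the outer membrane by a lipid anchor. Gpc3 (ENSMUSG00000055653.9) was the most abundant of all 39 genes, at 807 and 814 TPM (810.4 ± 4.94), and ranked 109 among 21474 protein-coding genes. Its 39005 and 42729 expected counts made it also the best sampled member. Gpc3 supplied 78.5 ± 0.409% of summed glypican TPM, and 59.8 ± 0.165% of glypican and syndecan TPM together. Gpc4, its closest follower among glypicans, stood at 87.4 and 89.4 TPM, so Gpc3 exceeded it 9.23-fold and 9.10-fold.

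Among the remaining glypicans, Gpc1 and Gpc6 had overlapping ranges of total TPM. Gpc1 measured 50.3 and 48.8 TPM. Gpc6 measured 49.6 and 45.7 TPM, a range that overlaps that of Gpc1, though Gpc1 was the higher in each library. On protein-coding transcripts alone the ranges were apart, at 48.3 and 47.4 TPM for Gpc1 and 36.9 and 38.0 TPM for Gpc6. Gpc2, best known from the nervous system, measured 26.7 and 26.0 TPM. It shares 2376 exon bases with Gm43720 on the same strand, whose transcript Gm43720-201 the tables count under Gpc2, at 0.89% and 0.49% of its TPM. Gpc5 was the lowest glypican at 11.3 and 9.76 TPM, below every other glypican in both libraries.

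4 of the glypican genes lie in a pair of related loci, each with a 6-O sulfotransferase gene beside it. On chromosome X of GRCm38, Hs6st2, Gpc4 and Gpc3 lie in this order on the minus strand, within chrX:51387212-52613950 (1.227 Mb, GENCODE M21), with 2 other protein-coding genes between them, 1700080O16Rik and Usp26. On chromosome 14, Gpc5, Gpc6 and Hs6st3 lie on the plus strand within chr14:115092215-119869815 (4.778 Mb) with 10 other protein-coding genes. The 3 members on X summed to 911 and 919 TPM (915 ± 5.97), and the 3 on chromosome 14 to 61.0 and 55.5 TPM (58.2 ± 3.86). Gene length differs as well: Gpc3 spans 341.5 kb, Gpc5 1433 kb and Gpc6 1051.2 kb. Hs6st2 measured 16.7 and 16.1 TPM, while Hs6st3 had 3 expected counts in each library (0.10 and 0.09 TPM), near the floor of 3 counts.

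The promoters of 4 of these genes are shown because they set the highest glypican beside the lowest and the abundant 6-O sulfotransferase beside the scarce one. Each sequence is the 250 bases before a RefSeq transcription start (GRCm38.p6), read along the gene's own strand from 5′ to 3′, with every CG dinucleotide in capitals. Gpc3 lies at chrX:52613975-52614224 (minus strand), Gpc5 at chr14:115091965-115092214 (plus) and Hs6st3 at chr14:119138015-119138264 (plus). Hs6st2 is shown for the second of its 2 listed starts, at chrX:51680478-51680727 (minus). The windows of both its starts lie inside the annotated gene.
Gpc3: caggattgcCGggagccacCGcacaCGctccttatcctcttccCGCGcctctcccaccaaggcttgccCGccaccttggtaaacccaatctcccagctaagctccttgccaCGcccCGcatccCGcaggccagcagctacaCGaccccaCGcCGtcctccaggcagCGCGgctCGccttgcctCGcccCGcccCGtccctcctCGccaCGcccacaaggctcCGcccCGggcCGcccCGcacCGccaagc
Hs6st2: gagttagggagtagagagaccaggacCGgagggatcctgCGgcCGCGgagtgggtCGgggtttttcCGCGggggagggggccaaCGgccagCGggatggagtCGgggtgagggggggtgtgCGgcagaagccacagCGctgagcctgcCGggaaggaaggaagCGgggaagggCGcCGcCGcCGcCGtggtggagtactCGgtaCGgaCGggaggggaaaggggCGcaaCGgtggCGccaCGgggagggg
Gpc5: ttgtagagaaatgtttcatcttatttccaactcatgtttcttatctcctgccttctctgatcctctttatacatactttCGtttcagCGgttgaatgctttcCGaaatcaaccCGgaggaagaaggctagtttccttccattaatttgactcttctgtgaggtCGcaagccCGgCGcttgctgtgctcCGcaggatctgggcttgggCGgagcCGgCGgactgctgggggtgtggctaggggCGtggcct
Hs6st3: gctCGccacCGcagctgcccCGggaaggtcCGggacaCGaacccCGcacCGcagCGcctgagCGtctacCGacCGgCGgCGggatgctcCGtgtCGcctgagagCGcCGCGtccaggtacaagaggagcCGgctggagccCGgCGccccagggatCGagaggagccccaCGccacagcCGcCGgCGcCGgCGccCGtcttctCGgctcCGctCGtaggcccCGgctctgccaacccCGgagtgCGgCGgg

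The Gpc3 window holds 25 CG dinucleotides, the Hs6st2 window shown 26, Gpc5 12 and Hs6st3 36. The scarce Hs6st3 has the most CG of the 4. The first listed start of Hs6st2 (chrX:51681603-51681852) holds only 7, so the count for this gene depends on the start. Of the 39 genes, 29 have a promoter in the RefSeq table, with 33 listed starts. Their windows held a median of 17 CG, against 6 over all 32851 promoters of the table, and 26 of 33 (78.8%) held at least 10, against 37.8% of all. TATAAA, searched on both strands, occurred in 3 of 33 member windows (9.09%) and in 12.37% of all windows. Those 3 were Gpc5 and the first listed starts of Hs6st2 and Sulf2. A match is only a run of letters in the window.

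**Figure D2:**
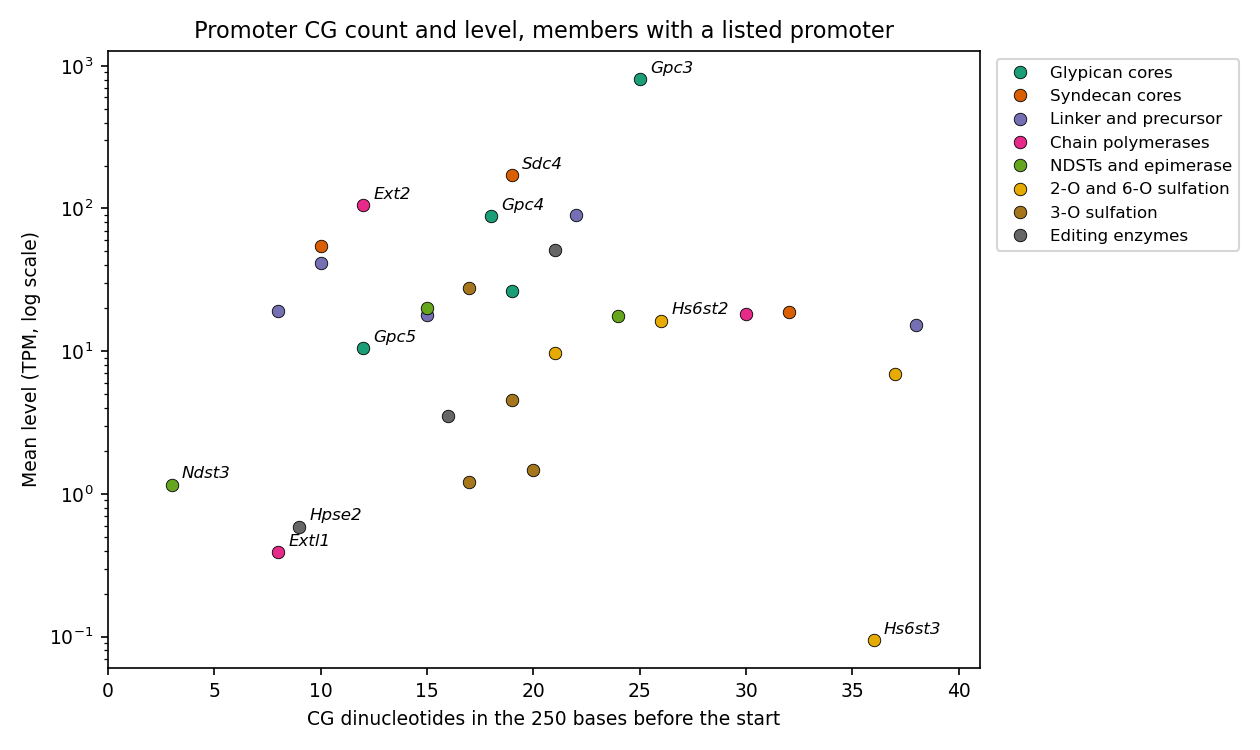
Mean level in TPM (log axis) against the number of CG dinucleotides in the 250 bases before the start, for the 29 genes with a listed promoter, coloured by role; where a gene has several starts the one with most CG is plotted. Ndst3, Extl1 and Hpse2 are low in both measures among the plotted genes. B4galt7, with 8 CG, stands at 19.15 TPM, and Hs6st3 combines 36 CG with the lowest level in the plot.

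Syndecans cross the membrane and signal through their cytoplasmic tails. Sdc4, a component of focal adhesions, was the highest of them at 167 and 175 TPM (171 ± 5.70) and ranked 874 among protein-coding genes. Sdc2 followed at 76.1 and 80.1 TPM. Sdc1, typical of epithelia, measured 53.4 and 56.1 TPM. Sdc3 was the lowest at 18.5 and 19.4 TPM, and shares 415 exon bases with the opposite-strand gene Gm26716 (8.08 and 8.30 TPM). No neighbouring pair of syndecans overlapped between libraries, and the division of the family hardly moved: Sdc4 took 53.1% and 53.0% of syndecan TPM, Sdc2 24.1% and 24.2%, Sdc1 16.9% in both and Sdc3 5.86% and 5.87%. All 4 syndecans were higher in replicate 2, by a log2 ratio of TPM of 0.07 each. The median absolute ratio over all genes with at least 1 CPM was 0.12, so no joint shift of the family is read from this.

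**Figure D3:**
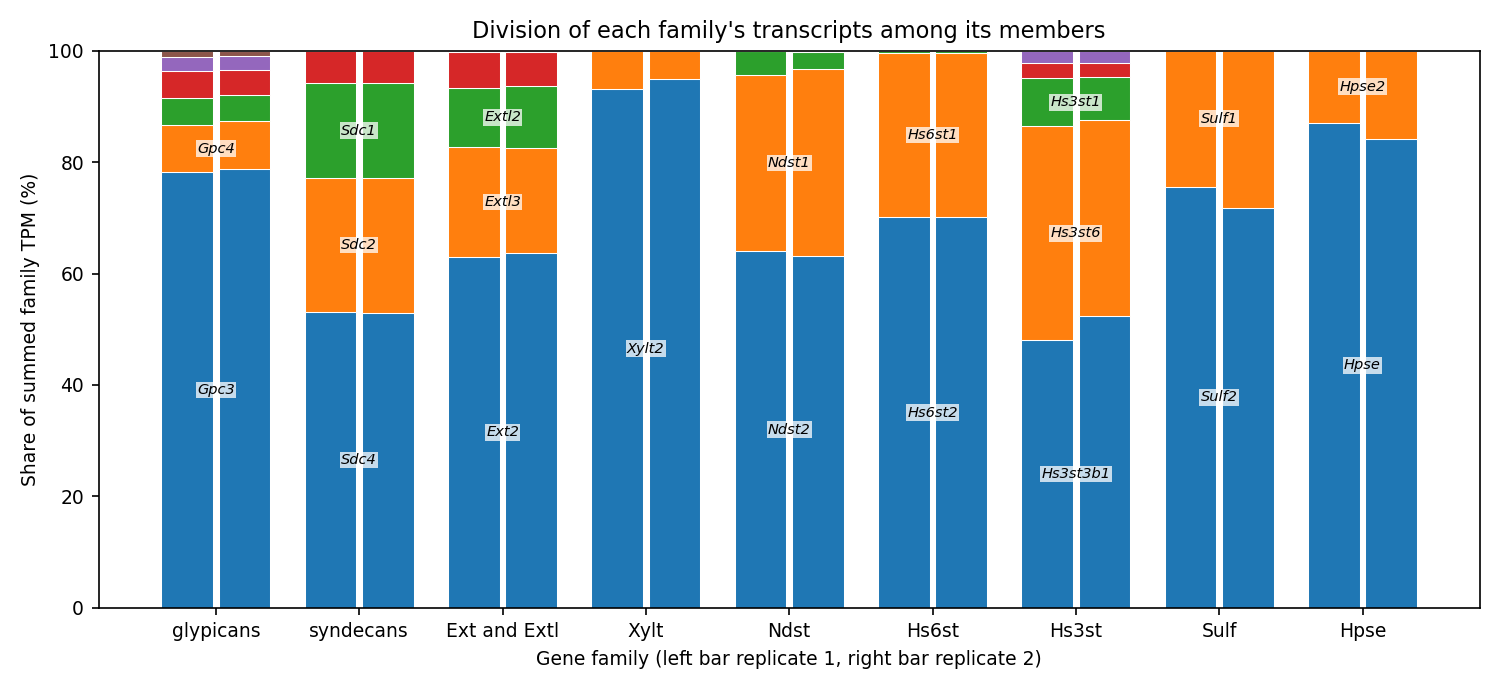
Share in percent of each family's summed TPM taken by each member, with replicate 1 in the left bar and replicate 2 in the right bar of each pair; members are stacked by share from the bottom, and thin segments without a name are the remaining members of the family. Gpc3 fills 78.2% and 78.7% of the glypican bars, whereas Hs3st3b1 and Hs3st6 divide most of the Hs3st bars.

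All 6 genes of precursor and linker synthesis were detected, with a median of 18.5 ± 0.721 TPM. Ugdh, which makes the glucuronic acid donor used in linker and chain, stood highest at 87.5 and 91.7 TPM. Its range overlapped that of Gpc4 (87.43 and 89.43 TPM), though Ugdh was the higher in each library. B3gat3, which adds the glucuronic acid that completes the linker, measured 40.3 and 42 TPM. The galactosyltransferases were lower.

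B3galt6, which adds the second galactose, measured 15.3 and 15.1 TPM. B4galt7, which adds the first, measured 21.6 and 16.8 TPM, the widest gap between libraries among the linker genes. Xylosylation of the core opens linker synthesis, and its transcripts came almost wholly from 1 of the paralogs. Xylt2 measured 16.5 and 19.3 TPM and took 94.0 ± 1.31% of the pair, whereas Xylt1 measured 1.23 and 1.03 TPM, just above the threshold, on 74 and 72 expected counts.

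The chain polymerases differed by more than their spread. Ext2, which with Ext1 forms the elongating complex, was the highest enzyme of all at 105 and 106 TPM and took 63.3 ± 0.521% of Ext and Extl TPM. Ext1 measured 10.8 and 10.1 TPM, so Ext2 exceeded its partner 9.72-fold and 10.5-fold. Extl3, which starts the chain on the linker, measured 32.8 and 31.2 TPM. Extl2, a related transferase that can add N-acetylglucosamine to the linker, measured 17.7 and 18.5 TPM. Extl1 was not detected, at 0.26 and 0.52 TPM on 24 and 45 expected counts.

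The gap between Ext2 and Ext1 was wider on transcripts that encode protein. Of Ext1 TPM, 51.3% and 49.2% was assigned to Ext1-203, annotated as subject to nonsense-mediated decay, and 18.9% and 22.5% to Ext1-204, a retained intron. Ext1-201, the protein-coding transcript, held 3.21 and 2.87 TPM, or 29.1% on average. Over coding transcripts Ext2 exceeded Ext1 31.8-fold and 36.5-fold. Which transcript a read belongs to was estimated by the authors, and Ext1-203 (1554 bases) and Ext1-204 (871 bases) are much shorter than Ext1-201 (7663 bases), so a count on them weighs more per length.

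Sulfation begins with N-deacetylase sulfotransferases, which swap acetyl groups on glucosamine for sulfate. Ndst2 led the family at 20.0 TPM in both libraries (19.96 and 20.03) and took 63.6 ± 0.600% of it. Ndst1, on which many tissues depend for N-sulfation, measured 9.88 and 10.7 TPM, so Ndst2 exceeded it 2.02-fold and 1.88-fold. Ndst3, at 1.33 and 0.99 TPM, missed the threshold in replicate 2 only. Its expected counts were 116 and 129, so the lower TPM of replicate 2 did not come with fewer counts. Ndst4 was not detected, with 1 and 4 expected counts around the floor of 3 counts. Glce, the epimerase that turns glucuronic into iduronic acid, measured 17.8 and 17.3 TPM.

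Hs2st1, the single 2-O sulfotransferase, measured 9.68 and 9.78 TPM. Among 6-O sulfotransferases, Hs6st2 took 70.1 ± 0.0337% of the family, and Hs6st1 followed at 7 and 6.76 TPM. The ratio of Hs6st2 to Hs6st1 was 2.38 in both libraries. Hs6st1 shares 447 exon bases with an antisense gene, Gm37335 (7.97 and 9.06 TPM), and without known strandedness reads from the overlap cannot be divided between them.

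The 3-O sulfotransferases add the rarest modification, which creates binding sites for particular proteins such as antithrombin. All 5 listed ones were detected, over a wide range. Hs3st3b1 was the highest of the sulfotransferases at 27.8 and 28.0 TPM. Hs3st6 measured 22.2 and 18.8 TPM. These 2 genes took 50.2 ± 3.01% and 36.8 ± 2.26% of the family.

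Hs3st1, which makes the antithrombin site, was far lower at 5 and 4.15 TPM. Hs3st2 measured 1.26 and 1.18 TPM. Hs3st3a1, a close copy of Hs3st3b1, measured 1.59 and 1.36 TPM, and Hs3st3b1 exceeded it 17.5-fold and 20.6-fold. Expected counts of this pair are not whole (140.03 and 130.06 for Hs3st3a1), so some reads were divided between genes, and which genes shared them is not known. Hs3st3a1 also shares 1295 exon bases with the opposite-strand gene F930015N05Rik (0.17 and 0.20 TPM). The ratio of the pair is uncertain to that extent. Hs3st4 and Hs3st5, the rest of the family, were not detected, at 0.06 and 0.05 TPM and at 0.45 and 0.23 TPM.

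Of the editing enzymes, the sulfatases Sulf1 and Sulf2 remove 6-O sulfate outside the cell. Sulf2 measured 52.1 and 49.7 TPM, a range that overlaps that of Gpc1, though Sulf2 was the higher in each library. Sulf1 measured 16.8 and 19.6 TPM. Sulf2 thus exceeded Sulf1 3.10-fold and 2.53-fold and took 73.7 ± 2.74% of the pair. Sulf2 shares 154 exon bases with the opposite-strand gene Ncoa3 (18.7 and 16.1 TPM). Hpse, the heparanase that cuts the chain, measured 3.65 and 3.38 TPM. Hpse2, a relative without cutting activity, was not detected at 0.54 and 0.64 TPM (21 and 27 expected counts).

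Ranked by mean level, the 39 genes form 38 neighbouring pairs, and the ranges of the libraries overlapped in 14 and did not in 24. The longest run of overlaps joined Hs3st6, Ndst2, B4galt7, Sdc3, Sulf1, Extl2, Xylt2 and Glce, all between 17.6 and 20.5 TPM on average, each of which could not be separated from the next. At the top, Gpc3, Sdc4 and Ext2 were each separate from the gene below.

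The number of transcripts in use differed among members. In 21 of the 34 detected genes the leading transcript held at least 90% of the gene's TPM. These include the 10 genes with a single transcript in the tables, for which no other outcome was possible. The other 24 have several. No such share over all detected protein-coding genes is given here, so the members are not set apart by it. Gpc3-201 held 96.6% of Gpc3. In 8 genes the leader held under 60%: Gpc2, Gpc5, Gpc6, Ext1, Extl2, Glce, Sulf1 and Sulf2.

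These 8 divide by what the competing transcripts are. In Gpc2 the leader, the protein-coding Gpc2-205, held 43.4% and 43.6%, while retained introns together held 41.5% and 38.4%. In Gpc5 the leader itself was a retained intron, Gpc5-204, at 35.3% and 36%, and coding transcripts together held 64.7% and 63.9%. In Gpc6, Gpc6-201 held 39.4% and 45.8%, and Gpc6-204 was at 0% in replicate 1 and 16.6% in replicate 2, so the division differed between libraries.

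Ext1, described above, was led by a decay transcript. Sulf2, Sulf1, Glce and Extl2 split mainly among coding transcripts. Sulf2-202 held 44.3% and 46.1% of Sulf2, and coding transcripts together 98.2%. Sulf1-202 held 36.4% and 28.6% of Sulf1, with Sulf1-204 at 30.2% and 27.4%. Glce-203 held 59.9% and 56.5%. Extl2 was the 1 gene whose leader changed: Extl2-203 held 50.1% and 47.0%, and Extl2-201 42.9% and 53.1%. Outside these 8, Ugdh carried 34.2% of its TPM on transcripts without an entry in GENCODE M21, a value chosen for mention after it was seen.

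**Figure D4:**
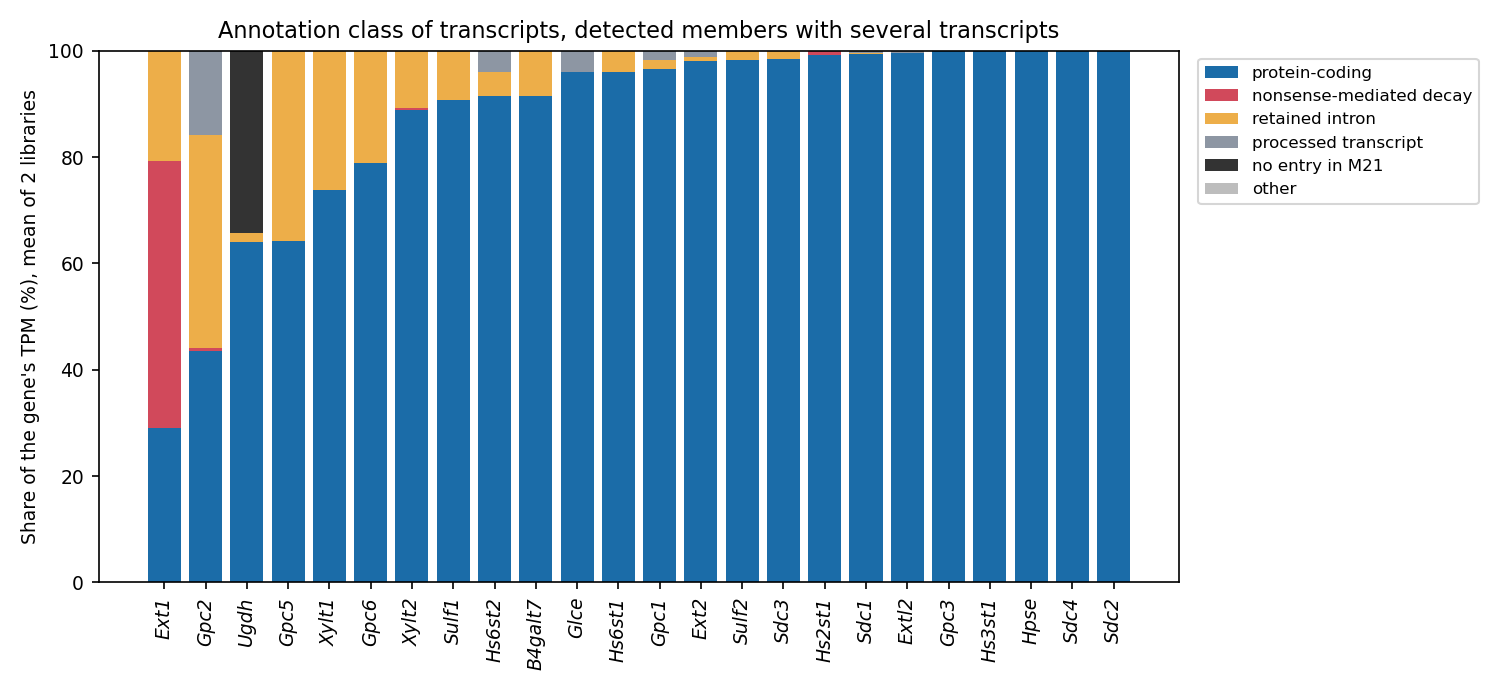
Share in percent of each gene's TPM on transcripts of each annotation class, mean of both libraries, for the 24 detected members with several transcripts. Ext1 and Gpc2 are the 2 members with under 50% on protein-coding transcripts (29.1% and 43.5%), and the dark part of Ugdh marks transcripts without an M21 entry.

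The 2 pools gave nearly the same levels for these genes. After TMM scaling, the log2 ratio of replicate 2 over replicate 1 was computed where the mean reached 1 CPM, as it did in 35 members. None of the 35 passed 1.5-fold, against 5.81% of all genes (893 of 15362). With 35 genes this count is near that share and does not set the members apart from other genes. The background reaches down to 1 CPM, and no share matched for level was computed. The ratios ran from -0.35 (B4galt7) to 0.22 (Sulf1), with a median of 0.01. Their median absolute size was 0.07, against 0.11 for all genes, and 18 members were higher and 17 lower in replicate 2. This split follows the scaling: by library size alone 13 were higher and 22 lower, and by spike-ins all 35 were higher, from 0.07 (B4galt7) to 0.64 (Sulf1, then past 1.5-fold). With 1 library per pool these ratios have no error of their own and no test was made.

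Some muscle, adrenal and kidney markers differed more between the pools than these genes did. On the same log2 scale Acta1, the actin of skeletal muscle, was higher in replicate 2 by 1.52, Acta2, the actin of smooth muscle, by 0.89 and Tagln, another smooth muscle gene, by 0.95. Among adrenal markers Cyp11a1, which opens steroid synthesis, was higher by 0.83 and Nr5a1 by 0.85, but Cyp21a1 by only 0.15. Th, the enzyme of catecholamine synthesis found in adrenal medulla, had a ratio of -1.06, lower in replicate 2. Among kidney markers Aqp2, the water channel of the collecting duct, had a ratio of 0.58 and Pax2 one of -0.49. Gpc3, with a ratio of 0.01, and Sdc4, with 0.07, stayed near 0 beside them.

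**Figure D5:**
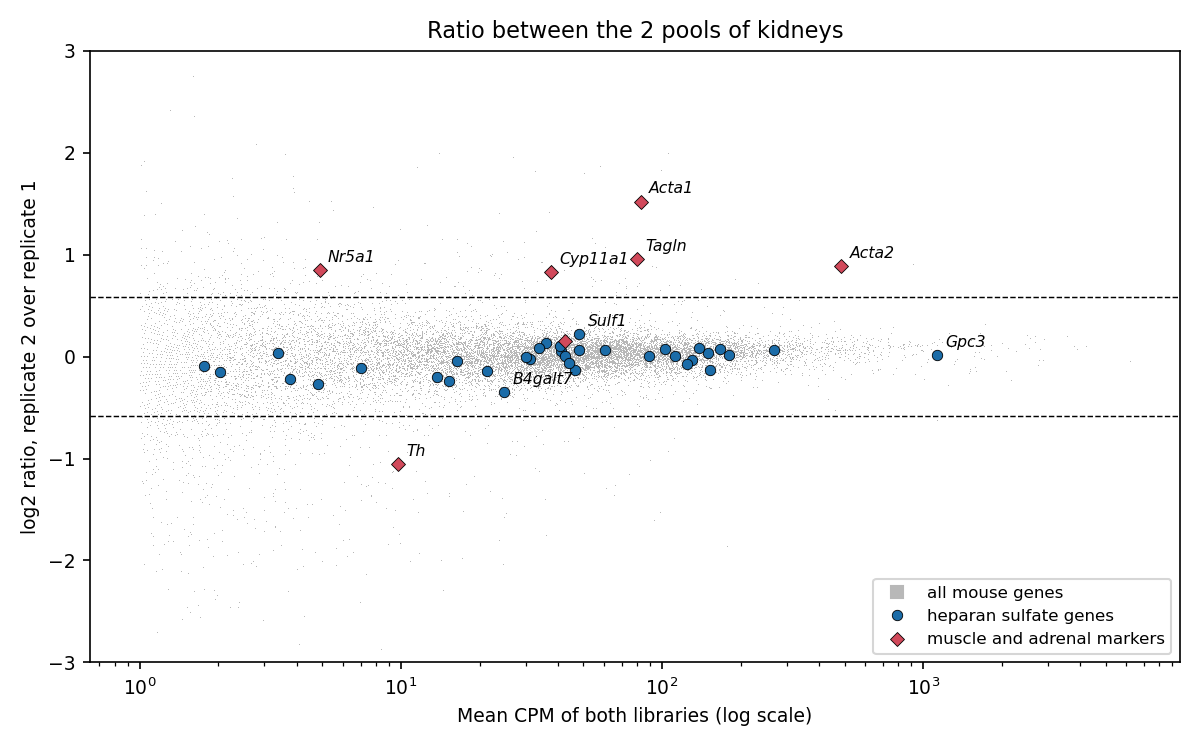
log2 ratio of replicate 2 over replicate 1 (TMM scaled) against mean CPM on a log axis for all mouse genes with at least 1 CPM (grey), the heparan sulfate genes (blue circles) and muscle and adrenal markers (red diamonds, of which Cyp21a1 is unnamed); dashed lines mark 1.5-fold and 19 grey genes lie outside the plotted range of 3 in either direction. All 35 blue points lie between the dashed lines, from -0.35 to 0.22, while Acta1, Acta2, Tagln, Cyp11a1, Nr5a1 and Th lie outside them.

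Genes that supply or share the pathway were almost all present: 46 of 49 were detected, the exceptions being Hs3st4, Hs3st5 and Chsy3. The share over all protein-coding genes was 62.2%, which is also the background for the counts of single lists below. These lists too were chosen with earlier results of these data known, so the counts describe the lists and were not tested. Core proteins secreted into basement membranes were abundant. Col18a1, the collagen XVIII core, stood at 207 and 212 TPM. Agrn (agrin) measured 89.0 and 92.7 TPM, and Hspg2 (perlecan) 34.2 and 33.4 TPM. Only Gpc3 among the 39 genes exceeded Col18a1.

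Proteins that carry heparan sulfate on part of their copies varied widely. Nrp1, a receptor for semaphorins and VEGF, measured 73.6 and 78.9 TPM. Tgfbr3 (betaglycan) measured 15.0 and 14.3 TPM. Srgn (serglycin) measured 6.75 and 8.02 TPM and Cd44 3.81 and 4.48 TPM.

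All 6 genes of the sulfate donor route were detected. Papss1, which makes the donor PAPS, measured 93.2 and 101 TPM. Slc35b2, which carries PAPS into the Golgi, measured 82.8 and 91.9 TPM. Bpnt2, which clears the by-product of sulfation, stood at 29.8 and 28.1 TPM, and Slc26a2, a sulfate transporter, was the lowest at 12.8 and 9.95 TPM. Papss1 and Slc35b2 thus each exceeded every sulfotransferase of the list.

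Among 6 sugar supply genes, Ugp2, which makes UDP-glucose, led at 63.8 and 71.2 TPM. Uxs1, which makes UDP-xylose, measured 27.0 and 28.7 TPM, Slc35a3 14.4 and 14.6 TPM and Slc35d2, a nucleotide sugar transporter, was the lowest at 3.48 and 3.70 TPM. The linker kinase Fam20b measured 24.4 and 30.8 TPM and the phosphatase Pxylp1 19.9 and 18.6 TPM. Gpld1, which cleaves lipid anchors, measured 7.55 and 6.40 TPM, and Notum, which removes the lipid of Wnt proteins, 4.80 and 4.01 TPM.

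All 8 lysosomal enzymes of heparan sulfate breakdown were detected. Gusb was the highest at 48.7 and 46.2 TPM, Hgsnat measured 30.1 and 32.9 TPM, and Ids was the lowest at 2.14 and 2.12 TPM. On the chondroitin and dermatan sulfate branch, which uses the same linker, 15 of 16 genes were detected, with a median of 9.40 ± 0.318 TPM. Chpf, a chondroitin polymerising factor, led it at 31.1 and 32.4 TPM, followed by Chst14 (23.5 and 22.5 TPM) and Chpf2 (21.1 and 21.8 TPM). Chsy3 was the lowest at 0.80 and 0.86 TPM.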

How the data were processed

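Total RNA-seq of 2 pools of E16.5 mouse kidney was analysed. The authors deposited a gene and a transcript table per library, which refer to assembly mm10 and annotation M4 per the deposited text notes. For aligner, quantifier, versions and strandedness: not given in the sources used here. The deposited expected counts are estimated counts and need not be whole. The deposited TPM and FPKM values are per length and library size, and the deposited TPM includes the 96 spike-ins. The deposited bounds of TPM, handled as a signal that is never negative, form an interval of unstated level and can exclude the TPM estimate itself, as for Gpc3. The deposited percent values give each transcript's share of its gene.

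Gene names, classes and coordinates came from GENCODE M21 (GRCm38), matched by stable ID (42462 of 43346 mouse genes matched, 884 did not). Mean and SD over both libraries were computed with Python 3.11.15, numpy 2.4.6 and pandas 2.3.3, and drawn with matplotlib 3.10.9. Ratios between pools used rounded expected counts, TMM factors from edgeR 4.0.16 (R 4.3.3) and a prior count of 2; the script that computes them was first run on simulated counts of known ratio. DESeq2 1.42.0 gave alternative size factors. No p-value was computed, since there is 1 group.

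All 39 members are named. Of other pathway lists the 3 highest and the lowest genes are named, or all in lists of up to 4. A gene that this rule names is not reported here. Transcripts are named for detected members whose leader differs between libraries, holds under 60% or is not protein-coding. The members and lists were chosen with earlier results of these data known. Classes compared are core proteins, chain polymerases, sulfotransferases (without the epimerase Glce) and editing enzymes. Promoters came from RefSeq (GRCm38.p6); 10 members have no entry in that table.

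Of the members, 31 had whole counts in both libraries (within 0.005) and 8 had counts shared with other genes: Gpc2, Gpc5, Sdc3, B4galt7, Hs6st1, Hs3st3a1, Hs3st3b1 and Sulf2. Exon bases are shared with another M21 gene by 11 members, in 8 of them on the opposite strand. Total expected counts of 34261328 and 37900132 set the counting precision. Alternatives tried were other units, thresholds, scalings and filters, each library alone and, chosen after seeing the data, protein-coding transcripts only.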

Additional observations from a re-analysis of the deposited data

How the results depend on the processing

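Of 100 alternative values computed for 16 results, 18 moved beyond the spread between libraries, or by over 1.5 times for counts. The direction of every class ratio and the leading member of every family held in those run. The ratio of core proteins to chain polymerases (2.89) was 2.73 with posterior mean TPM, 2.08 over detected members and 4.88 from mean log2 values (pseudocount 0.1). The ratio to sulfotransferases (7.58) was 5.22 over detected members and 16.1 from mean log2 values, and that to editing enzymes (4.82) was 2.88 and 8.85. With protein-coding transcripts only, chosen after seeing the data, shares moved to 80.9% (Gpc3), 53.1% (Sdc4), 65.9% (Ext2) and 69.1% (Hs6st2). With posterior mean TPM they moved to 52.8% (Sdc4), 62.7% (Ndst2) and 70.8% (Hs6st2). Scaling by spike-ins shifted the log2 ratio between pools by a median of 0.42 over all genes, after which 1 member (Sulf1) and 2724 genes passed 1.5-fold. Without the filter on low counts, 2 members (Extl1 and Ndst4) and 5739 of 43346 genes passed. Members detected ranged from 31 to 36 over the thresholds and units tried, with 34 without replicate 1 and 35 without replicate 2. Each library alone gave ratios of 2.83 to 2.94 to polymerases. No paired analysis was possible because there is 1 group. Depth limits Extl1, Ndst4, Hs6st3 and Hpse2, each with at most 45 expected counts per library.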
